A study of Mus musculus with 7 samples.

Results

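Testicular macrophage transcripts were followed in whole testes through 10 genes, chosen because they are commonly used as macrophage genes: *Csf1r*, *Adgre1*, *Cd68*, *Mrc1*, *Lyz2*, *C1qa*, *C1qb*, *C1qc*, *Cx3cr1* and *Cd163*. They are 10 of the 21928 genes to which the deposited transcripts were matched, and all 10 were among the 13630 genes that were tested. Bulk RNA-seq of total RNA came from testes enriched for preleptotene cells, from 4 pups of wild type and 3 *Meioc*-null pups on the C57BL/6N strain background, with 1.5 testes of a single pup in each library. The null pups carry the *Meioc*-null allele tm1.1Dpc. All pups of both genotypes had received WIN 18,446, which blocks the making of retinoic acid, at 0.1 mg/g body weight each day from P2 to P8 and retinoic acid at 0.0125 mg/g on P9, and their testes were taken 6.75 days after retinoic acid. The samples are therefore drug-synchronized testes of young animals, and there was no untreated group. Because the RNA is that of the whole organ, a lower number of macrophages and a lower amount of each transcript per macrophage cannot be told apart.

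Macrophages are the main immune cells of the testis. They lie in the interstitium beside Leydig cells and vessels, where many carry the mannose receptor MRC1, and on the wall of the tubules, where many carry MHC class II. Their survival depends on the receptor CSF1R and its ligands CSF1 and IL34, and they take up dead cells and debris and make the complement protein C1q. MEIOC is a germ cell protein of the mitosis-to-meiosis transition, and the comparison of genotypes gives the macrophage transcripts of testes with and without it.

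The macrophage label was checked against other genes of the same cells. *Cd14*, *Adgre1* and *Itgam*, which the study used to recognise testicular macrophages among single cells, were all detected in each of the 7 libraries, at 0.956 to 2.09 CPM for *Cd14* and 4.01 to 5.19 CPM for *Itgam*. CPM are counts scaled to library size with edgeR's TMM factors. All 22 of a list of other macrophage and myeloid genes were tested, and so were *Lyve1*, *Folr2*, *Timd4* and *Pf4* of tissue-resident macrophages. Genes listed for other leukocytes were also detected. The 5 dendritic cell genes summed to 39.7 to 51.6 CPM, nearly all of it *Zbtb46*, so that sum rests on a single gene and does not by itself show dendritic cells. The 5 monocyte genes summed to 12.9 to 18.8 CPM and the 8 T and NK cell genes to 6.02 to 8.59 CPM. The 5 B cell genes summed to 0.855 to 2.84 CPM, the 5 mast cell genes to 0.905 to 2.09 CPM and the 5 neutrophil genes to 0 to 1.95 CPM, and *Mpo*, *Ly6g* and *Retnlg* of neutrophils and *Fcer1a* of mast cells had at most 3 counts in each library, which at this depth is 0.151 to 0.236 CPM.

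Promoter sequence was looked at because PU.1, encoded by *Spi1*, is the ETS factor that drives much of the myeloid programme. RefSeq windows on GRCm38.p6, from 250 bases before to 50 after an annotated start, were at hand for 7 of the 10 genes, *Mrc1*, *C1qb*, *C1qc*, *Cd163*, *Cx3cr1*, *Lyz2* and *Cd68*. The letters AGGAAGT, the core of the PU.1 site, were searched on both strands, as were the longer letters GAGGAAGT, which contain them. The shorter core was in 4 of these 7 windows and in 9.35% of all 32851 windows, and the longer core was in 1 of the 7, that of *C1qc*, and in 3.20% of all windows. The letters were picked with the windows in view. The 4 windows with a match are shown as stretches of 60 bases, 5′ to 3′ on the strand of the gene, with the match in capitals, which reads as ACTTCCT because each lies on the opposite strand.

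*C1qb* (chr4:136886220-136886279, minus strand): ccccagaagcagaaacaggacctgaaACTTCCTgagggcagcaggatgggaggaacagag
*C1qc* (chr4:136893076-136893135, minus strand): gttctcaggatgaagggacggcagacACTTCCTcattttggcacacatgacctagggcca
*Lyz2* (chr10:117282339-117282398, minus strand): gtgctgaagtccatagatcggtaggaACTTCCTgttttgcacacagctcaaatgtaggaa
*Mrc1* (chr2:14229177-14229236, plus strand): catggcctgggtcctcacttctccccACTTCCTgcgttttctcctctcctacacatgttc

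The matches began 53 bases before the RefSeq start of *C1qb*, 100 before that of *Lyz2*, 195 before that of *C1qc* and 211 before that of *Mrc1*. *C1qb* and *C1qc* are neighbours on chromosome 4, with *C1qa* beyond them. A match is a description of the letters and was not tested as a binding site.

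The libraries held 12537852 to 20552702 estimated counts, and the 10 genes together made up 0.0390% to 0.0507% of them. *Meioc* itself, the targeted gene, was at 466 to 718 CPM in the wild-type pups and at 299 to 412 CPM in the null pups, so the groups did not overlap and the order follows the labels. At an adjusted p under 0.05, 1513 of the 13630 tested genes (11.1%) were called between the genotypes by the quasi-likelihood test of edgeR (Benjamini-Hochberg adjustment over all tested genes), and 454 (3.33%) were called lower in wild type. All fold changes put wild type over *Meioc*-null, so a negative log2 fold change is a higher level in the null. Null replicate 1 stood apart for the macrophage genes, as described below, so the fold changes were also computed without it where the gene could still be tested.

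Of the 10 macrophage genes, 0 were called by edgeR, against the 11.1% of all tested genes that were called. At an unadjusted p under 0.05 there were 2, *Csf1r* and *Cd163*, against 30.3% of all tested genes. The log2 fold change was negative for 9 of the 10, with a median of -0.18, while the median over all tested genes was -0.0065 and 50.9% of them were negative. *Cd163* reached the minimum level for testing only through the null libraries, so its presence among the tested genes leans on that side and nothing is read from its p or sign. Among the other 9 genes only *Csf1r* was at an unadjusted p under 0.05 and only *Mrc1* had a positive log2 fold change. The median of these 9 was -0.16. Without null replicate 1, the median of the 9 genes that could then be tested was 0.032, and 6 of the genes changed sign.

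**Figure D1:**
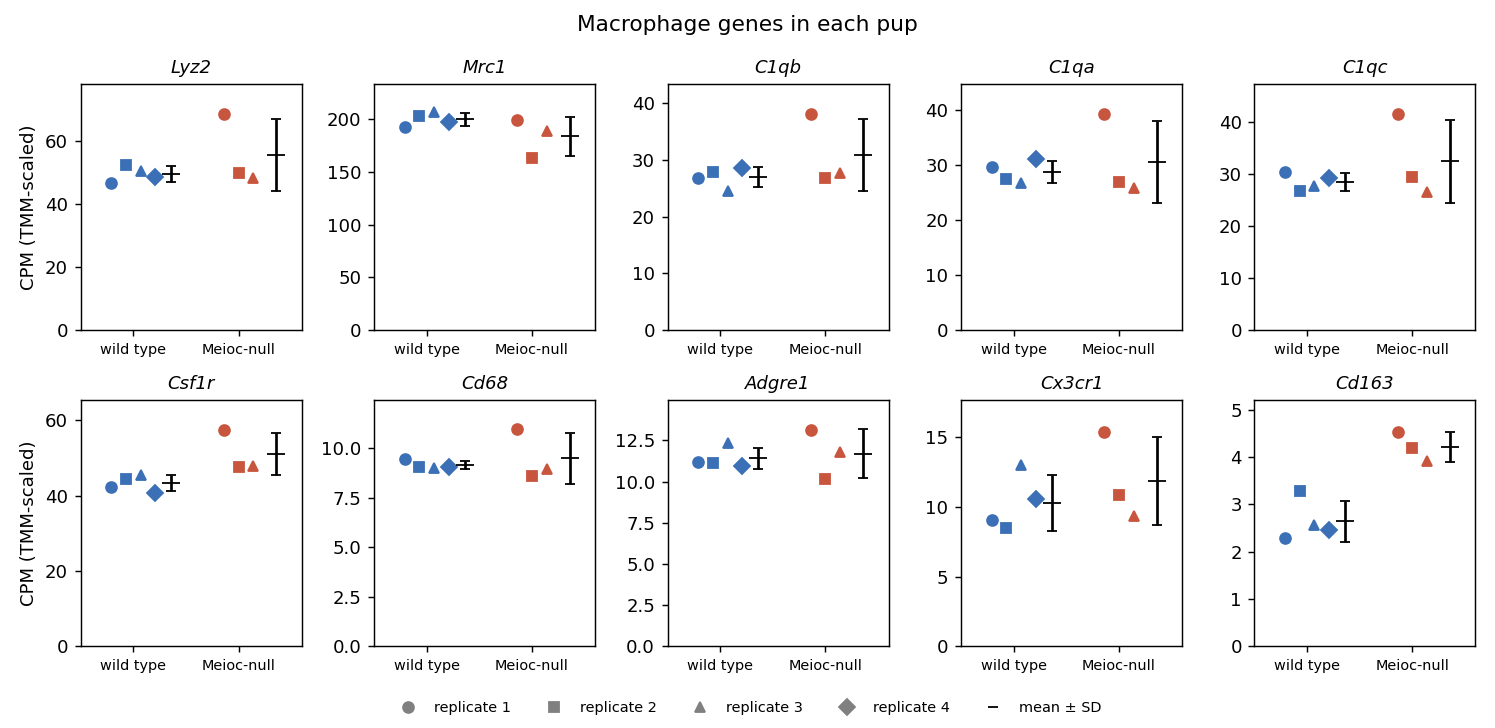
Level of each of the 10 macrophage genes in each pup, in TMM-scaled CPM on axes from 0; marker shapes are replicate numbers, blue is wild type (n = 4), red is *Meioc*-null (n = 3), and black bars are the mean ± SD. Null replicate 1 is the highest pup for 9 genes, and the groups are apart for *Csf1r* and *Cd163*. Of all tested genes, 10.8% were apart with wild type lower. Since *Cd163* entered the test only through the null pups, nothing is read from its separation.

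*Csf1r* encodes the receptor for CSF1 and IL34 and is the gene on which macrophage survival rests. Its GRCm38 position is chromosome 18, 61100598 to 61132149 on the plus strand. The wild-type pups, in the order of replicates 1 to 4, were at 42.2, 44.4, 45.5 and 40.8 CPM, and the null pups, in the order of replicates 1 to 3, at 57.4, 47.5 and 47.9 CPM. Each null pup was thus above each wild-type pup, although null replicates 2 and 3 cleared the highest wild-type pup by only a small step. The log2 fold change was -0.24 (SE 0.093, edgeR adjusted p = 0.12), which is 1.18-fold higher in the null with a 95% interval of 1.02 to 1.36. Without null replicate 1 the value was -0.14. In GENCODE vM21 an exon of *Hmgxb3* on the opposite strand overlaps *Csf1r*, and the authors' counting used strand.

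The ligands of the receptor were measured beside it. *Csf1* was tested and not called. Its wild-type mean was 24.2 ± 1.54 CPM (SD, n = 4) and its null mean 26.8 ± 5.22 CPM (SD, n = 3), with its highest value again in null replicate 1, at 32.6 CPM. *Il34* was below the level for testing, at 0.279 to 0.552 CPM in wild type and 0.217 to 0.361 CPM in the null. Of 9 genes that carry the signal below the receptor, 0 were called higher and 1 lower in wild type, where 3.33% of all tested genes were called lower. The latter was *Plcg2*, a phospholipase of haematopoietic cells, at 21.7 to 23.9 CPM in the wild-type pups and at 26.5, 40.2 and 31.7 CPM in null replicates 1 to 3 (log2 fold change -0.52, edgeR adjusted p = 0.038). Here the highest pup was null replicate 2, as it was for 24.5% of all tested genes, and not replicate 1. With 1 library left out *Plcg2* was still called in 2 of 7 fits. The log2 fold changes of the other 8 genes ran from -0.49 for *Pik3cd* (edgeR adjusted p = 0.057) to -0.012 for *Lyn*, a SRC-family kinase.

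*Cd163*, the scavenger receptor for haptoglobin-haemoglobin complexes, differed most in size. It lies on chromosome 6 from 124304656 to 124330527 on the plus strand. It was at 2.29, 3.27, 2.56 and 2.47 CPM in wild-type replicates 1 to 4 and at 4.53, 4.19 and 3.91 CPM in null replicates 1 to 3. All 3 null pups were above all 4 wild-type pups, and they lay close to each other. The log2 fold change was -0.67 (SE 0.19, edgeR adjusted p = 0.052), a 1.59-fold higher level in the null with a 95% interval of 1.18 to 2.14, just outside the threshold. DESeq2, which the study itself used, put it just inside, at an adjusted p of 0.049 where 6.42% of the tested genes were called lower in wild type, and so did edgeR with no scaling beyond library size, at 0.035 where 6.60% were. Over all alternatives in which the gene could be tested the adjusted p ran from 0.035 to 0.24. The depth is thin, with 29 to 49 counts per wild-type library and 58 to 85 per null library. No wild-type library had a TPM of at least 1 for *Cd163* and all 3 null libraries did, so the gene entered the test through the null group alone, and it could not be tested when any null library was left out. Groups that do not overlap with wild type lower were found for *Csf1r* and *Cd163*. Since *Cd163* entered only through the null group, nothing is read from its separation. The count among the other 9 genes was 1, where 10.8% of all tested genes did not overlap with wild type lower.

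*Mrc1* encodes the mannose receptor CD206, the usual mark of interstitial testicular macrophages, and was the most heavily counted gene, with 2265 to 3929 counts per library. It lies on chromosome 2 from 14229392 to 14332057. It was at 193, 203, 207 and 198 CPM in wild-type replicates 1 to 4 and at 199, 164 and 189 CPM in null replicates 1 to 3. The groups overlapped, and the lowest pup was null replicate 2. The log2 fold change of 0.12 (SE 0.083, edgeR adjusted p = 0.35) was the only positive value among the 10, and its 95% interval ran from 0.81-fold to 1.05-fold in the null relative to wild type. On log2(TPM + 1) the sign of *Mrc1* turned, to -0.13. *Cd163* counted in CPM was 1.19% to 1.61% of *Mrc1* in the wild-type pups and 2.07% to 2.56% in the null pups. The limit on *Cd163* given above holds for this ratio too, and nothing is read from its separation.

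*C1qa*, *C1qb* and *C1qc* encode the A, B and C chains of C1q, the protein that starts the classical complement pathway, and lie side by side on the minus strand of chromosome 4, from 136880129 to 136898803. Wild-type replicates 1 to 4 had 29.6, 27.5, 26.7 and 31.2 CPM of *C1qa*, against 39.2, 26.9 and 25.8 CPM in null replicates 1 to 3. For *C1qb* they had 26.9, 27.8, 24.5 and 28.6 CPM, against 38.1, 26.9 and 27.6 CPM. For *C1qc* they had 30.4, 26.6, 27.6 and 29.3 CPM, against 41.4, 29.3 and 26.5 CPM. For each chain null replicate 1 was the only null pup above all wild-type pups. Their log2 fold changes were -0.092, -0.20 and -0.19, with standard errors of 0.15, 0.13 and 0.15 and edgeR adjusted p of 0.70, 0.35 and 0.42, and none was called. Without null replicate 1 they were 0.13, -0.017 and 0.029.

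The ratios between the chains were taken pup by pup. In TPM, which is per length, *C1qa* was 0.793 to 0.955 of *C1qb* over the 7 pups and *C1qc* was 0.682 to 0.892 of it, and the raised pup was inside both ranges, at 0.898 and 0.854. In plain counts, *C1qa* was 0.935 to 1.10 times *C1qb*. The pup that was high for one chain was therefore high for all 3, in proportions within the range of the other pups.

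Complement genes outside the C1q chains were given by a list of 16, of which 14 were tested and 0 were called by edgeR, the median being -0.19 (log2), with 3 of the 14 genes at an unadjusted p under 0.05 where 30.3% of all tested genes were. *C1ra* and *C1s1*, the proteases that pair with C1q, were the 2 of the 14 genes without overlap between genotypes, and they were not called. Both were lower in wild type, where 10.8% of all tested genes were lower without overlap. *C1ra* was at 61.1 to 66.8 CPM in the wild-type pups and at 69.6 to 86.2 CPM in the null pups (edgeR adjusted p = 0.065), and *C1s1* at 109 to 122 CPM and at 126 to 137 CPM (edgeR adjusted p = 0.096). The highest log2 fold change of the list was that of *C3*, at 0.70 (edgeR adjusted p = 0.17). Many of these genes are made by stromal cells as well as by macrophages.

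*Lyz2* encodes lysozyme M of macrophages and neutrophils, and lies on chromosome 10 from 117277331 to 117282321. It was at 46.8, 52.6, 50.4 and 48.8 CPM in wild-type replicates 1 to 4 and at 68.7, 49.8 and 48.2 CPM in null replicates 1 to 3. Null replicates 2 and 3 were inside the wild-type range, and null replicate 1 was above it. The log2 fold change was -0.16 (SE 0.12, edgeR adjusted p = 0.40) and became 0.018 without null replicate 1. Of the 31-base words of the *Lyz2* transcript, 32.8% also occur in *Lyz1*, the lysozyme of intestinal Paneth cells. *Lyz1* was estimated at no more than 0.553 CPM in any library, so the division of reads between the pair moves *Lyz2* little.

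*Cd68*, a glycoprotein of the lysosome membrane, and *Adgre1*, which encodes the surface protein F4/80, had the values closest to 0 among the 10 genes. *Cd68* was at 9.46, 9.06, 9.03 and 9.06 CPM in wild-type replicates 1 to 4 and at 11.0, 8.60 and 8.95 CPM in null replicates 1 to 3. *Adgre1* was at 11.2, 11.1, 12.3 and 11.0 CPM in the wild-type pups, and the null pups had 13.1, 10.2 and 11.8 CPM. For both genes null replicate 1 was above and null replicate 2 below all wild-type pups, and null replicate 3 was below them for *Cd68* and among them for *Adgre1*. The log2 fold changes were -0.058 (SE 0.13, edgeR adjusted p = 0.80) and -0.040 (SE 0.13, edgeR adjusted p = 0.86). In the null relative to wild type, the 95% intervals ran from 0.85-fold to 1.28-fold for *Cd68* and from 0.84-fold to 1.25-fold for *Adgre1*. *Cd68* lies on chromosome 11 from 69664213 to 69666153 and *Adgre1* on chromosome 17 from 57358691 to 57483527.

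*Cx3cr1*, the receptor for fractalkine on monocytes and many resident macrophages, had the widest SE of the 10 genes. It was at 9.06, 8.50, 13 and 10.6 CPM in wild-type replicates 1 to 4 and at 15.4, 10.8 and 9.33 CPM in null replicates 1 to 3. The groups overlapped, and wild-type replicate 3 was above null replicates 2 and 3. The log2 fold change was -0.20 (SE 0.21, edgeR adjusted p = 0.53), with a 95% interval from 0.84-fold to 1.58-fold in the null. *Cx3cl1*, which encodes fractalkine, was tested and not called, with a wild-type mean of 14.3 ± 2.79 CPM (SD, n = 4) and a null mean of 18.6 ± 3.16 CPM (SD, n = 3). *Cx3cr1* lies on chromosome 9 from 119901616 to 120069879, where an exon of the antisense gene *Gm33858* overlaps it on the opposite strand.

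**Figure D2:**
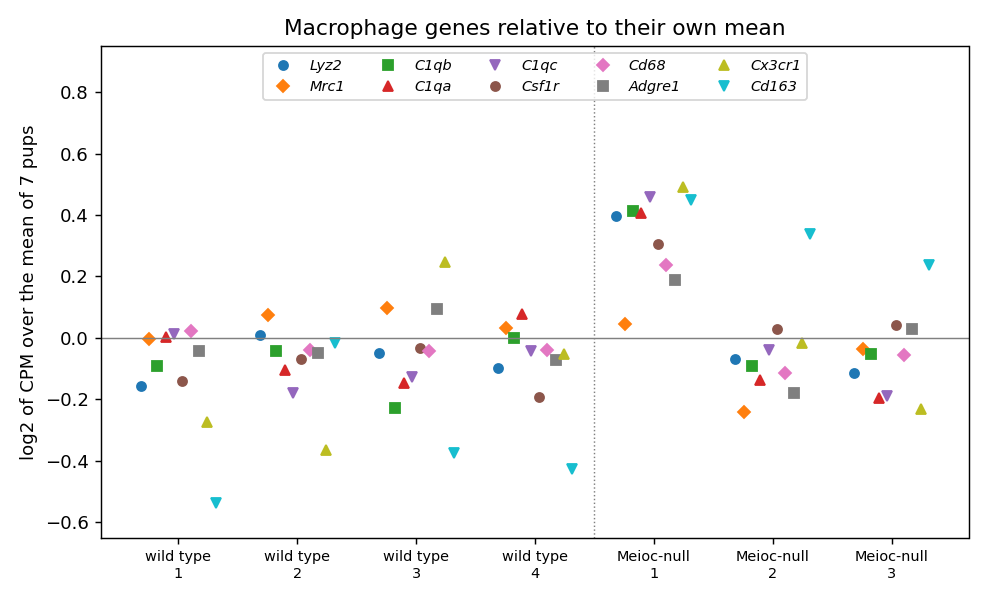
Each macrophage gene in each pup as the log2 of its TMM-scaled CPM over its own mean of the 7 pups; points of a pup are spread sideways by gene, and the dotted line parts wild type from *Meioc*-null. In null replicate 1 all genes but *Mrc1* lie above their own points in the other 6 pups, and *Cd163* is above its mean in all 3 null pups. The latter gene entered the test only through the null pups.

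Null replicate 1 had the highest CPM of all 7 libraries for 9 of the 10 genes, the exception being *Mrc1*, for which wild-type replicate 3 was highest. Of all tested genes, 10.9% were highest in that library. Summed over the 10 genes, the level was 401, 414, 418 and 409 CPM in wild-type replicates 1 to 4 and 488, 378 and 399 CPM in null replicates 1 to 3. On this scale the other 2 null pups were below all 4 wild-type pups. In TPM the order turned, with 281, 251, 255 and 259 TPM in the wild-type pups and 386, 326 and 284 TPM in null replicates 1 to 3, so all 3 null pups were above all 4 wild-type pups. Without *Mrc1*, which supplies much of the sum, the wild-type pups ran from 208 to 212 CPM, and null replicates 1 to 3 had 289, 214 and 210 CPM. Centred within genotype, the log2 CPM of the genes moved together over the 7 pups, with a median Pearson r of 0.68 over the 45 pairs of genes and all 45 positive. That is a description in which the pups share 1 raised library. The r with the mean of the 10 was highest for *Lyz2*, at 0.97, and lowest for *Cd163*, at 0.38.

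Other lists were examined in the same pup. The 22 other macrophage and myeloid genes summed to 277 to 295 CPM in wild type and to 331, 288 and 274 CPM in null replicates 1 to 3, and 8 of the 22 were highest in null replicate 1. Resident macrophage genes summed to 150 to 168 CPM in wild type and to 172, 154 and 148 CPM in the null. Of the 10 tested, 3 were highest in null replicate 1. Lysosomal genes summed to 4023 to 4250 CPM in wild type and to 3930, 3526 and 4196 CPM in the null. The dendritic cell sum, nearly all *Zbtb46*, was lowest in null replicate 1, at 39.7 CPM. The 8 MHC class II genes summed to 37.1 to 42.8 CPM in wild type and to 62.1, 49.99 and 25.7 CPM in the null. Sertoli cell genes summed to 3104 to 3363 CPM in wild type and to 3341, 2923 and 3180 CPM in the null, and endothelial genes to 84.2 to 102 CPM and to 89.2, 105 and 108 CPM. Peritubular myoid genes were at 800 to 910 CPM in wild type and at 900, 805 and 916 CPM in the null, and Leydig cell genes at 396 to 696 CPM and at 676, 457 and 769 CPM. In CPM, null replicate 1 was the highest of all pups for none of these 4 stromal lists. In TPM it was the highest for 3 of the 4, at 3622 TPM for Sertoli, 742 TPM for Leydig and 505 TPM for peritubular myoid genes, where the other pups reached 3516, 650 and 485 TPM, so the order depends on the scale. Germ cell genes summed to 2005 to 2231 CPM in wild type and to 1355 to 1508 CPM in the null, with *Tex101*, *Dazl* and *Mael* called higher in wild type. Their part in the macrophage values was not tested.

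**Figure D3:**
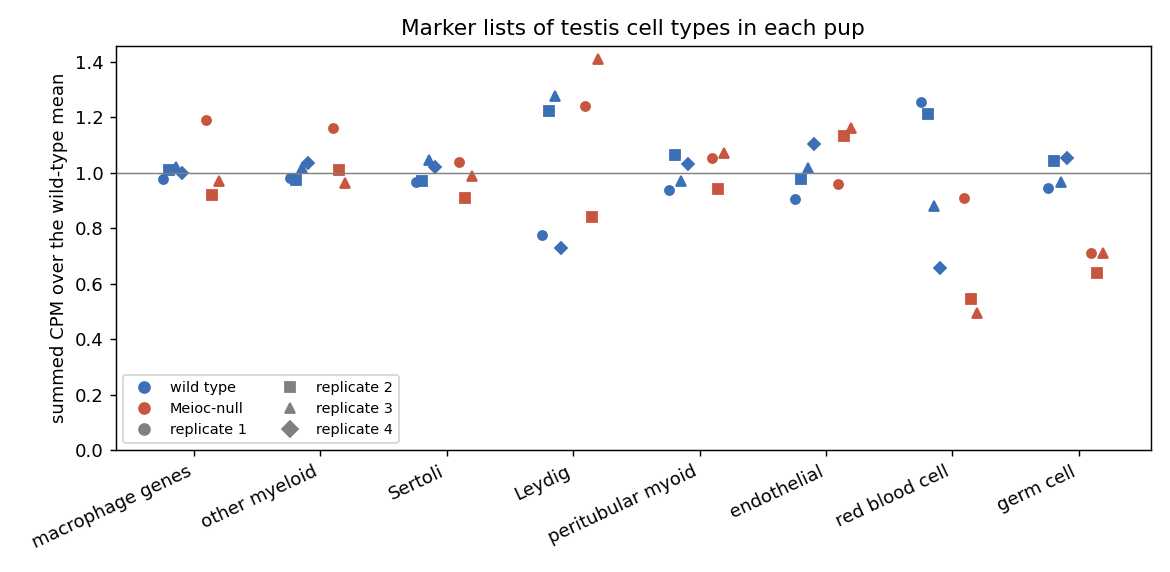
Summed TMM-scaled CPM of the 10 macrophage genes and of 7 other marker lists in each pup, divided by the mean of the 4 wild-type pups; the axis starts at 0, blue is wild type, red is *Meioc*-null and marker shapes are replicate numbers. Null replicate 1 is the highest pup for the macrophage and the other myeloid genes, and the germ cell sum is lower in all 3 null pups.

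Relative to the 12 Sertoli cell genes, the level of the macrophage genes was compared as well. The ratio of the sums in CPM was 0.128 ± 0.0039 (SD, n = 4) in wild type and 0.134 ± 0.011 (SD, n = 3) in the null, with 0.146 in null replicate 1 and 0.129 and 0.125 in the other null pups. The groups overlapped. Of the 12 Sertoli genes 1 was called, *Gata4*, lower in wild type, where 3.33% of all tested genes were. At an unadjusted p under 0.05 there were 4 of the 12, against 30.3% of all tested genes. Their log2 fold changes ran from -0.34 for *Sox9* to 0.53 for *Trf* over the 12 genes, so the divisor is not made of unchanging genes.

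The scale changes the reading of these small differences. TPM is scaled to the same total in each library, and on log2(TPM + 1) the median log2 fold change of all tested genes was itself -0.23. In TPM the null mean was above the wild-type mean for all 10 genes. *Cd163* entered the test only through its TPM in the null libraries, so its separation in TPM is not counted. Of the other 9 genes, 5 did not overlap, all with wild type lower, where 28.4% of all tested genes did the same. On this scale limma called 3 of the 10 lower in wild type, where 15.3% of all tested genes were called so. These were *Csf1r* (log2 fold change -0.45, adjusted p = 0.032, limma), *Lyz2* (-0.39, adjusted p = 0.046, limma) and *C1qb* (-0.41, adjusted p = 0.048, limma). Set against the median of all genes, the 3 values shrink to -0.22, -0.16 and -0.19, and the 10 genes ran from -0.25 for *Cd163* to 0.095 for *Mrc1*.

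**Figure D4:**
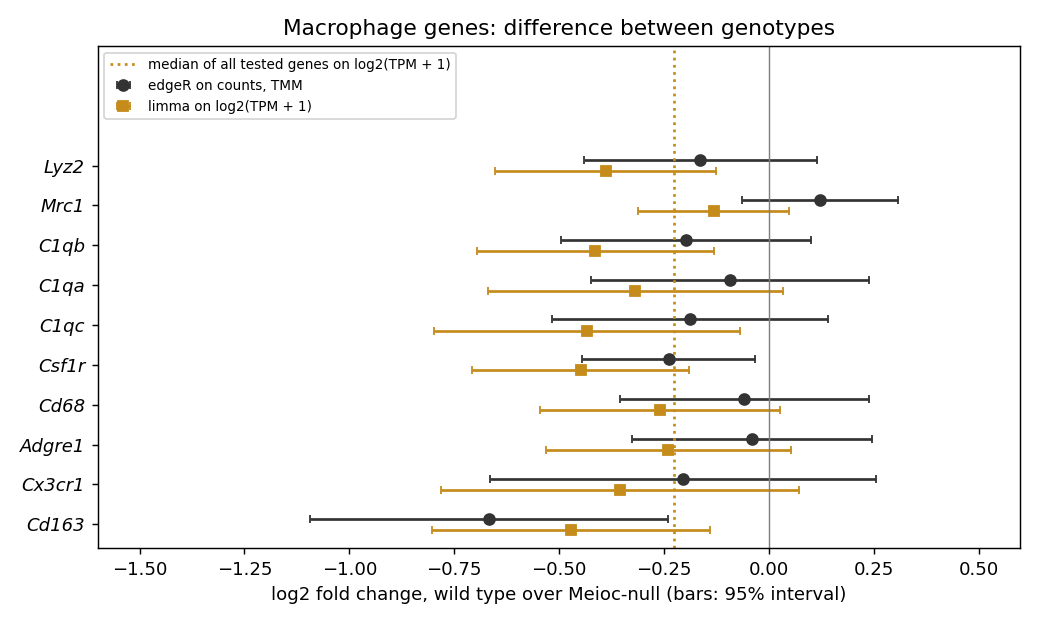
Log2 fold change, wild type over *Meioc*-null, of each macrophage gene with its 95% interval from edgeR on TMM-scaled counts (black) and from limma on log2(TPM + 1) (gold); the dotted line is the median of all tested genes on the TPM scale. The gold values lie to the left of the black ones for all genes but *Cd163*, and the black intervals of all genes but *Csf1r* and *Cd163* include 0. Nothing is read from the interval of *Cd163*, which entered the test only through the null pups.

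Levels between the genes were compared per length, in TPM over the 7 pups. *Lyz2* was highest at 80.2 ± 16.1 TPM (SD, n = 7), followed by *Mrc1* at 69.2 ± 4.20. The C1q chains came next, *C1qb* at 38.9 ± 8.17, *C1qa* at 34.5 ± 7.52 and *C1qc* at 32.0 ± 8.06. *Csf1r* followed at 15.4 ± 3.03 TPM, *Cd68* at 11.0 ± 1.57, *Adgre1* at 5.59 ± 0.707, *Cx3cr1* at 3.86 ± 1.11 and *Cd163* at 1.06 ± 0.387 (SD, n = 7 for each). Each gene was above the next in all 7 pups. The ranges of neighbours overlapped for *Lyz2* and *Mrc1*, for the C1q chains, for *Csf1r* and *Cd68* and for *Adgre1* and *Cx3cr1*, so only 4 of the steps were wider than the spread over pups, those from *Mrc1* to *C1qb*, from *C1qc* to *Csf1r*, from *Cd68* to *Adgre1* and from *Cx3cr1* to *Cd163*.

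The counts of most genes came from a single transcript. *Mrc1*, *Lyz2*, the C1q chains and *Cd68* had all their TPM in 1 transcript, and Csf1r-201 held 89.1% to 93.4% of the TPM of *Csf1r*. The split was unsteady for 3 genes whose transcripts share most of their sequence. Adgre1-202 held between 33.7% and 100% of *Adgre1* in a library, Cx3cr1-201 between 38.2% and 86.1% of *Cx3cr1*, and Cd163-201 between 0% and 100% of *Cd163*. Only the sums by gene were compared between genotypes for these.

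Other macrophage genes were taken from lists, whose calls stand beside the 11.1% of all tested genes called in either direction, the 3.33% called lower in wild type and the 30.3% at an unadjusted p under 0.05. Of the 22 other macrophage and myeloid genes 0 were called by edgeR, with 2 at an unadjusted p under 0.05 and a median log2 fold change of -0.099. The values ran from -0.46 for *Msr1*, a scavenger receptor, to 0.40 for *Cd52*, a surface glycoprotein of leukocytes. Of 12 resident macrophage genes 10 were tested and 0 were called, with 0 at an unadjusted p under 0.05, from -0.58 for *Timd4*, a receptor for phosphatidylserine on dying cells, to 0.15 for *Stab1*, a scavenger receptor. Of 9 tested myeloid transcription factors 1 was called, *Maf*, lower in wild type, at 42.0 to 48.6 CPM against 56.4 to 60.9 CPM in the null (log2 fold change -0.37, edgeR adjusted p = 0.023). *Maf* drives the resident macrophage state and is also expressed outside myeloid cells. With 1 library left out, 2 of 7 fits still called it. *Spi1*, which encodes PU.1, was at 1.67 to 3.23 CPM in wild type and 1.63 to 3.57 CPM in the null (log2 fold change 0.038, edgeR adjusted p = 0.95). The extremes of the list were *Cebpb* at -1.09, with an edgeR adjusted p of 0.052, and *Nr1h3*, a nuclear receptor for oxysterols, at 0.46.

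Among 6 tested MHC class II genes 1 was called. *H2-DMa*, a chain of the molecule that loads peptide onto MHC class II, was higher in wild type, at 4.41 to 7.40 CPM against 1.90 to 3.73 CPM in the null (log2 fold change 1.18, edgeR adjusted p = 0.024), and 2 of 7 fits with 1 library left out called it. *H2-Aa*, a chain of MHC class II itself, had the lowest value of the list, -0.83 (edgeR adjusted p = 0.21), with 11.7, 10.2 and 3.04 CPM in null replicates 1 to 3. *Cd74*, the invariant chain, was at 31.7, 22.4 and 14.4 CPM in the same pups and at 14.2 to 20.1 CPM in wild type. *H2-Ab1* went the other way, with a log2 fold change of 0.50 (edgeR adjusted p = 0.41). It was at 7.77, 7.30 and 2.33 CPM in these null pups and at 5.04 to 10.3 CPM in wild type. Of the 6 tested genes 3 were negative and 3 positive, with a median log2 fold change of 0.017.

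Of 11 tested genes for the uptake of dead cells, which macrophages share with Sertoli cells, 2 were called, both lower in wild type. *Mertk*, a receptor tyrosine kinase that binds dying cells through bridging proteins, was at 41.9 to 50.4 CPM in wild type and at 53.9 to 63.0 CPM in the null (log2 fold change -0.36, edgeR adjusted p = 0.036). *Dock1*, which acts with ELMO1 on RAC1 during engulfment, was at 65.8 to 80.1 CPM and at 83.3 to 116 CPM (log2 fold change -0.42, edgeR adjusted p = 0.049). With 1 library left out, each was called in 1 of 7 fits. Of the 14 lysosomal genes, all tested, 0 were called by edgeR and 4 were at an unadjusted p under 0.05, with a median of 0.044. Of 16 cytokine and activation genes only 4 reached the level for testing and 0 were called, with 1 at an unadjusted p under 0.05. *Ccl8*, a chemokine, had the lowest value, -1.66 (edgeR adjusted p = 0.10), at 0.101 to 0.958 CPM over all pups and with at most 3 counts in 3 of the wild-type libraries. *Ccl3*, *Ccl4*, *Cxcl2*, *Il6* and *Il10* had at most 3 counts in each library, so differences in them were not detectable at this depth. The monocyte genes *Ccr2* and *Plac8* and the dendritic cell genes *Zbtb46* and *Xcr1*, the only tested genes of their lists, were not called.

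The genes outside the list whose pattern over the 7 pups was most like the mean of the macrophage genes, by Pearson correlation of log2 CPM centred within genotype, were *Cox14*, *Gm10184*, *Tmem259*, a copy of *Zc3h11a*, *Mcrip1*, *Emp3*, *Cirbp* and *Tkt*, with r from 0.98 to 0.99. Of the 13620 other tested genes, 195 had an r above 0.9 over these 7 libraries. None of the 8 belongs to the lists above, and *Gm10184* has 0 counts in all 4 wild-type pups, so its likeness rests on the null pups alone. The *Zc3h11a* copy had a null mean of 24.1 ± 41.8 CPM (SD, n = 3), so its null values are far apart and its likeness rests mainly on 1 library. For each of the 8 genes the SD in CPM was larger over the null pups than over the wild-type pups. It was 0.198 in wild type and 1.19 in the null for *Cox14*, 0.361 and 3.46 for *Emp3*, and 3.09 and 12.1 for *Cirbp*. The likeness of all 8 therefore rests mainly on the null pups, of which replicate 1 was raised for the macrophage genes.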

How the data were processed

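The authors trimmed single-end reads of ribosomal RNA-depleted, stranded libraries with cutadapt 1.8 and quantified GENCODE Basic vM15 transcripts with kallisto 0.44.0. They deposited estimated counts and TPM of protein-coding transcripts, the TPM rescaled to a fixed total per library. TPM keeps no depth, and sequence-bias correction alters effective lengths per library.

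Here 43020 of 43139 transcripts were assigned to genes by Ensembl identifier (GENCODE vM21, GRCm38); the rest held 0.247% to 0.282% of counts. Gene sums were rounded, and genes reaching 1 TPM in 3 or more libraries were tested with edgeR 4.0.16 (TMM, quasi-likelihood, genotype only, Benjamini-Hochberg over all 13630 genes). Alternatives used DESeq2 1.42.0 and limma 3.58.1 (R 4.3.3). The fits were first tested on simulated data. Intervals cover the fitted spread between pups, and floors counting error only. The members and lists were chosen with earlier results of these data known. Genes named are the 10 members, *Meioc*, called list genes, the highest and lowest of the macrophage, leukocyte and complement lists, markers listed at 0 and the 8 most alike. Added after their values were seen were genes at or under 3 counts, *Lyve1*, *Folr2*, *Pf4*, *Cd14*, *Itgam*, *C1ra*, *C1s1*, *Cd74*, *H2-Ab1*, *Csf1*, *Il34*, *Pik3cd*, *Cd3d* and *Spi1*. No 2 libraries were duplicates: the lowest ratio of squared difference to counting noise was 7.85. Same-numbered libraries of both genotypes did not deviate together, with r of -0.23 to -0.057 over 3 pairs. Some results are not reported here.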

Additional observations from a re-analysis of the deposited data

Results flagged for a closer look

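A single wild-type pup far from the other 3 was found for 3 of the 26 quantities examined, where chance gives about 1 in 20. For *Cd68* the highest of the 4 wild-type pups, replicate 1 at 9.46 CPM, stood off by 0.924 of the range of the group, and the other 3 lay between 9.03 and 9.06 CPM, so the whole range is small. For *Adgre1* the highest, replicate 3 at 12.3 CPM, stood off by 0.837 of the range. The ratio of *C1qa* to *C1qb* in TPM was lowest in wild-type replicate 2, at 0.793, a gap of 0.992 of the range, while null replicate 3 had the same ratio to within rounding.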

How the results depend on the processing

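The number of macrophage genes called was 0 in the main analysis and 0 under 13 of the 17 alternatives; it was 1 with DESeq2, 1 without scaling factors and 3 on both TPM scales. *Cd163* was called at -0.68 with DESeq2 and at -0.75 with no scaling. It entered the test only through the null libraries, so nothing is read from these calls. It could be tested in 13 of the 17 alternatives, and the fits that lacked it could not call it. On log2(TPM + 1) and log2(TPM + 0.1), *Csf1r* was called at -0.45 and -0.47, *Lyz2* at -0.39 and -0.39 and *C1qb* at -0.41 and -0.42, and *Mrc1* turned sign to -0.13 on both; the median of all genes was -0.23 and -0.25 on these scales.

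The median log2 fold change of the macrophage genes was -0.25 with no scaling, -0.20 with scaling to the Sertoli genes, -0.37 and -0.41 on the TPM scales and -0.16 with a TPM of at least 5, where *Cd163* and *Cx3cr1* could not be tested. Leaving out each library in turn called 0 macrophage genes each time, but *Cd163* could not be tested in the fits that left out a null library. The median then ran from -0.26 to 0.032, and the ranges were -0.13 to 0.050 for *Adgre1*, -0.12 to 0.057 for *Cd68*, -0.26 to 0.018 for *Lyz2*, -0.21 to 0.13 for *C1qa*, -0.32 to 0.029 for *C1qc* and -0.36 to 0.032 for *Cx3cr1*, the positive ends all without null replicate 1. The log2 ratio of genotypes relative to Sertoli genes, -0.064, was -0.13 from TPM sums and ran from -0.11 to 0.0052 with a library left out. Of all genes, 1513 were called in the main analysis, 2331 with DESeq2 and 2522 and 2506 on the TPM scales. With a library left out the number ran from 129 (null replicate 3) to 2177, and it was also under 1513 by more than 1.5 times without null replicate 2 (371) and without wild-type replicates 2 (305), 3 (278) and 4 (548).

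With the replicate number as a block the median was -0.16, 0 macrophage genes and 109 of all genes were called, and no call of a macrophage gene changed; the labels do not say that a number is shared by litter or day. Depth limits *Cd163* and the genes at the floor.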

Other observations

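The 6 red blood cell genes, of haemoglobin chains, haem synthesis and the red cell surface, summed to 695, 672, 487 and 364 CPM in wild-type replicates 1 to 4 and to 504, 302 and 274 CPM in null replicates 1 to 3. All 6 log2 fold changes were positive, with a median of 0.53, and 0 were called by edgeR. At an unadjusted p under 0.05 there were 2, against 30.3% of all tested genes. The groups overlapped, and the pup that was high for macrophage genes was not the highest here.

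Among the 3 tested genes of T and NK cells 1 was called, where 11.1% of all tested genes were called in either direction. *Cd3e*, a chain of the T cell receptor complex, was higher in wild type, at 3.21 to 4.48 CPM against 1.19 to 1.92 CPM in the null (log2 fold change 1.22, edgeR adjusted p = 0.018), and 5 of 7 fits with 1 library left out called it. *Cd3d* and *Cd3g*, chains of the same complex, had log2 fold changes of -0.026 and -0.065 and were not called. *Des*, an intermediate filament gene of muscle, was the only called gene of the 7 peritubular myoid genes, lower in wild type at -0.37 (edgeR adjusted p = 0.049), and 0 of 7 fits with 1 library left out called it. Of all tested genes, 3.33% were called lower in wild type.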
